A study of Sus scrofa with 24 samples.

Results

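LIF and the IL-6 cytokine family were followed here as 8 genes: the secreted ligands LIF, CLCF1 and IL6, the receptor chains LIFR, OSMR, IL6ST and IL6R, and the transcription factor STAT3. A gene was a member when the symbol paired with its pig Ensembl identifier was one of these 8 names. Each symbol matched 1 row, so the family made up 8 of the 25880 pig genes in the count table, and 8 of 8 were among the 14172 genes with enough reads to be tested. The cells were wild-type pig bronchial epithelial cells, freed by enzymes from the bronchi of animals aged 1 month and grown on collagen-coated membranes at an air-liquid interface, a culture in which airway epithelium differentiates with its upper face open to air. SB203580 blocks the p38 mitogen-activated protein kinases, DMSO is its solvent, and flagellin is the bacterial protein that the receptor TLR5 recognises. There were 6 groups of 4 RNA-seq libraries, and each culture was first kept for 1 h with 20 µM SB203580 or with DMSO. The SB203580 plus flagellin groups then received 100 ng/ml flagellin for 2 h or 24 h, the flagellin groups received the same after DMSO, and the PBS groups received buffer after DMSO. The labels give no SB203580 culture without flagellin, so the inhibitor was read on top of flagellin in each comparison. They number the replicates 1 to 4 without saying whether these came from separate animals or cultures, so each p-value reflects only library-to-library spread, which could be technical.

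Cytokines of this family work through shared receptor chains. LIF binds LIFR, IL6 binds IL6R, and oncostatin M binds OSMR, and each of these complexes holds IL6ST, also called gp130, as the chain that carries the signal inward. CLCF1 also signals through LIFR and gp130. Janus kinases bound to the receptors phosphorylate STAT3, which enters the nucleus and turns on target genes, among them SOCS3, an inhibitor of the same receptors. Airway epithelium is a known source of IL-6 and LIF during infection.

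The 3 ligand genes lie on different chromosomes in the deposited table, with LIF on chromosome 14 (47221486 to 47228273, minus strand), CLCF1 on chromosome 2 (5144340 to 5153482, plus strand) and IL6 on chromosome 9 (91506340 to 91511491, plus strand). LIFR and OSMR are neighbours on chromosome 16, at 23629867 to 23767990 on the minus strand and at 24041345 to 24102177 on the plus strand. The gap between them was 273354 bases. IL6ST lies farther along chromosome 16 (35101306 to 35151841, minus strand). IL6R lies on chromosome 4 (95322434 to 95381338, minus strand) and STAT3 on chromosome 12 (20407189 to 20472993, plus strand). The pig assembly behind these positions is not given in the sources used here.

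Libraries held 26345945 to 36267289 reads assigned to pig genes. Epithelial genes were high in the 24 libraries, with EPCAM between 243 and 401 CPM (read counts scaled to a common library total) and the junction gene CDH1 between 1180 and 2186 CPM. The leukocyte gene PTPRC reached at most 0.113 CPM, and CD3E of T cells and CD163 of macrophages were at 0 in every library. Other genes listed as markers of leukocytes were detected in every library, among them CD14 (6.30 to 119 CPM), CD68 (5.36 to 28.4), AIF1 (5.53 to 18.9), LYZ (1.74 to 21.5), S100A8 (57.3 to 531) and CD2 (0.280 to 1.60). Of genes listed for stromal and endothelial cells, TAGLN lay between 100.1 and 436 CPM and KDR between 77.5 and 509 CPM. DCN (5.48 to 46.2 CPM), COL1A1 (0.790 to 13.8), COL1A2 (0.530 to 2.86) and PECAM1 (1.89 to 6.34) were also detected in every library. LUM, PDGFRA and COL3A1 reached at most 1.12, 1.19 and 0.480 CPM, and ACTA2 and CDH5 at most 0.186 and 0.0558 CPM. Replicates 3 and 4 stood apart from replicates 1 and 2. In a fit with a term for the 2 sets at each time, 52% of the tested genes differed between the sets at 2 h and 64.6% at 24 h. The split was known from earlier results of these same data, so these shares describe it and are not an independent test. What the numbering marks is not in the labels, so a batch, an animal and a culture state cannot be told apart here. Because same-numbered libraries deviated together, the fit with the replicate number as a block is given as well wherever it changed the call of a member. The same number gave the best match in 21 of 36 pairings, and in the rest it was the other number of the same set. The pairings thus followed the 2 sets throughout, and the single numbers only in part.

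LIF, a cytokine made early in inflammation, had the largest difference of the 8 genes between flagellin and PBS at 2 h. It stood at 131, 107, 69.1 and 45.7 CPM in flagellin cultures (replicates 1 to 4), against 19.0, 6.35, 3.89 and 3.80 CPM in PBS cultures. Every flagellin library lay above every PBS library, and under both treatments replicates 1 and 2 lay above replicates 3 and 4. The means were 88.1 ± 38.1 CPM with flagellin and 8.26 ± 7.26 CPM with PBS (SD, n = 4 each), a 10.7-fold difference or 3.42 on the log2 scale (SE 0.86). Without replicate 1 of the PBS cultures it was 4.23, still short of the threshold (adjusted p = 0.0864). In edgeR without a block this did not pass (adjusted p = 0.13), and 0 of the 8 members were called, where 0.325% of all tested genes were. The 2 members LIF and CLCF1 had p-values under 0.05 before adjustment, as did 5.09% of all tested genes. With the block the log2 fold change was 3.71 (SE 0.37, adjusted p = 5.36e-06), and LIF was then the 1 member called, beside 1.07% of all genes. DESeq2, run without a block, called LIF too (adjusted p = 0.00157), beside 0.529% of the genes it tested.

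Read replicate by replicate, LIF with flagellin was 6.89, 16.8, 17.8 and 12.0 times its PBS level at 2 h. The lowest of these ratios belonged to replicate 1, whose PBS library had the highest LIF of the 4 at 19.0 CPM. Among the tested genes, 4.66% had flagellin and PBS ranges that did not overlap at 2 h, and LIF was the only member among them. Within replicates 3 and 4 alone the log2 fold change was 3.91 (adjusted p = 0.00115), and within replicates 1 and 2 it was 3.23 and did not pass (adjusted p = 0.275). Each of these 2 fits had 2 libraries per group, and the difference between the sets was not tested. Over all replicates, leaving out any of the 8 libraries in turn, with the block kept, left the log2 fold change between 3.35 and 3.95 with an adjusted p of at most 8.6e-05.

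**Figure D1:**
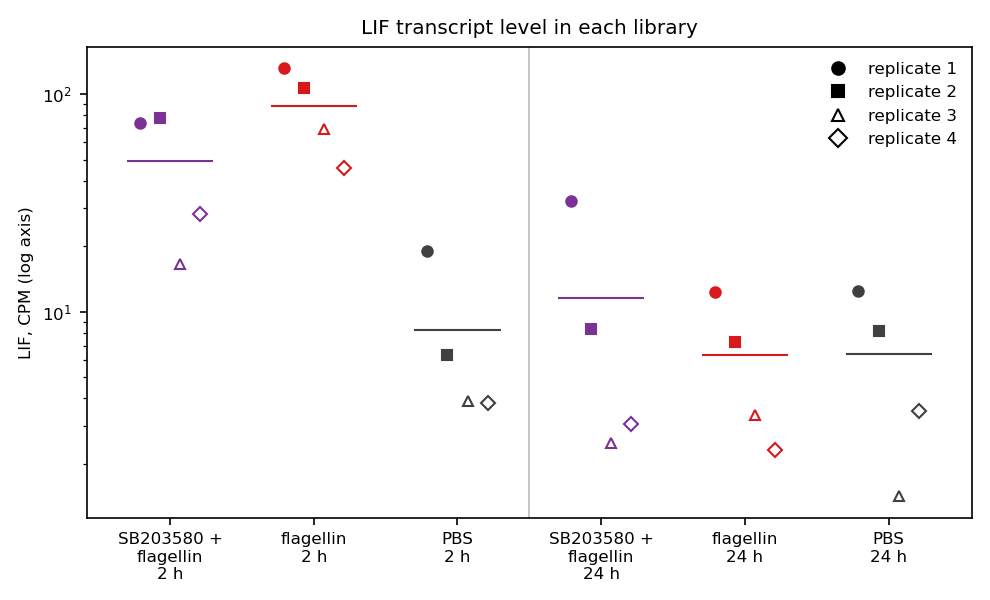
LIF in each of the 24 libraries, in CPM on a log axis, by group. Markers show the replicate number (filled for 1 and 2, open for 3 and 4) and lines the mean of 4 libraries. The flagellin libraries at 2 h sit between 45.7 and 131 CPM, above the PBS libraries at 2 h, while at 24 h the 3 groups overlap and the highest library, at 32.3 CPM, is 1 of the SB203580 plus flagellin group.

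With SB203580 added, LIF at 2 h was lower in each same-numbered pair, but the difference did not pass the test. LIF was at 73.7, 77.9, 16.6 and 28.1 CPM with SB203580 plus flagellin, against 131, 107, 69.1 and 45.7 CPM with flagellin. The inhibitor libraries thus held 56.3%, 73.0%, 24.1% and 61.5% of the flagellin level in replicates 1 to 4, and the 2 groups overlapped. The log2 fold change was -0.84 (SE 0.78, edgeR adjusted p = 1) and with the block -1.03 (SE 0.33, adjusted p = 0.584). For all genes this was a quiet comparison, with 0.00706% called and 2.27% under 0.05 before adjustment.

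Under the inhibitor LIF still stood above PBS at 2 h. The means were 49.1 ± 31.3 CPM with SB203580 plus flagellin and 8.26 ± 7.26 CPM with PBS (SD, n = 4 each). The log2 fold change of 2.57 (SE 0.83) did not pass without the block (edgeR adjusted p = 0.495) and passed with it, at 2.68 (SE 0.36, adjusted p = 0.000367). Without replicate 1 of the PBS cultures the value lacking the block was 3.39 (adjusted p = 0.31). LIF was the 1 member called with the block, beside 0.804% of all genes. Without it 0 members and 0.183% of all genes were called. There LIF was the 1 member at an unadjusted p under 0.05, beside 4.75% of all genes. DESeq2 called 0 members and 0.431% of the genes it tested. The groups overlapped, because the lowest inhibitor library, at 16.6 CPM, lay under the highest PBS library, at 19.0 CPM. The 3 groups at 2 h share libraries between comparisons, so these differences are not independent of each other.

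At 24 h no difference in LIF between treatments was detectable. Values were 32.3, 8.33, 2.50 and 3.04 CPM with SB203580 plus flagellin, 12.3, 7.24, 3.37 and 2.33 CPM with flagellin, and 12.5, 8.14, 1.42 and 3.52 CPM with PBS. In each group replicates 1 and 2 were again above replicates 3 and 4, and the ranges of the 3 groups overlapped. On the log2 scale flagellin against PBS gave -0.018 (SE 0.80, adjusted p = 1), and SB203580 plus flagellin against flagellin gave 0.87 (SE 0.80, adjusted p = 1). That second value rested on replicate 1 of the inhibitor group, at 32.3 CPM, and was -0.45 without it.

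At 24 h no comparison of treatments called a member. Flagellin against PBS called 0% of all tested genes in edgeR, with 112 genes under 0.05 before adjustment, and 1 member, IL6, among them. The inhibitor set against flagellin called 0%, with 405 genes and 1 member, CLCF1, under that limit. Against PBS, the inhibitor cultures gave 0 called members and 0.00706% of all genes (0.0635% with the block). Before adjustment 603 genes were under 0.05, with 1 member, IL6, among them. DESeq2 also called 0 members in these comparisons.

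In flagellin cultures LIF was therefore lower at 24 h than at 2 h, at 6.31 ± 4.53 CPM against 88.1 ± 38.1 CPM (SD, n = 4 each). The 24 h level was between 4.88% and 9.40% of the 2 h level of the same replicate number. This fall passed with and without the block, with log2 fold changes of -4.05 (SE 0.38, adjusted p = 1.73e-06) and -3.80 (SE 0.87, adjusted p = 0.0102). With SB203580 plus flagellin LIF was at 11.6 ± 14.1 CPM at 24 h and 49.1 ± 31.3 CPM at 2 h (SD, n = 4 each). That fall passed with the block alone (-2.50, SE 0.35, adjusted p = 0.000148), since without it the log2 fold change of -2.09 had an adjusted p of 0.137. In PBS cultures LIF was at 6.39 ± 4.94 CPM at 24 h and 8.26 ± 7.26 CPM at 2 h, or -0.37 on the log2 scale (SE 0.80, edgeR adjusted p = 0.839).

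The flagellin effect on LIF, taken at 24 h minus 2 h, was itself tested as an interaction. It was -3.44 on the log2 scale (SE 1.15), with an edgeR adjusted p of 1 without the block. There 0.0423% of all genes were called, and 1 member, LIF, had an unadjusted p under 0.05, beside 1.66% of all genes. Without replicate 1 of the PBS cultures at 2 h the interaction was -4.25 (adjusted p = 0.991). With the block it was -3.67 (SE 0.50, adjusted p = 0.000921), and LIF was the 1 member called, beside 0.191% of all genes. The effect of SB203580 on top of flagellin, at 24 h minus 2 h, was 1.71 (SE 1.12, adjusted p = 1) for LIF. That value rested on replicate 1 of the SB203580 plus flagellin cultures at 24 h and was 0.39 without it. No member and 0% of all genes passed in that interaction in edgeR, 113 genes had an unadjusted p under 0.05, and DESeq2 called 0 members.

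The genes that followed LIF most closely over the 24 libraries were RND1, CXCL2, a chemokine for neutrophils, MAP3K8, a kinase of the inflammatory cascade, TNFAIP3, an inhibitor of NF-kappaB signalling, and CCL2, a chemokine for monocytes. Likeness was the root mean square difference between centred log2 CPM profiles, and it ran from 0.587 for RND1 to 0.715 for CCL2 among 10747 genes, whose median was 1.93. A gene with a flat profile would score 1.9, the spread of LIF itself, so the median mainly reflects that spread. CXCL2 averaged 237 ± 75.6 CPM with SB203580 plus flagellin, 534 ± 165 CPM with flagellin and 33.7 ± 38.0 CPM with PBS at 2 h (SD, n = 4 each). RND1 averaged 84.5 ± 48.2 CPM, 180 ± 70.3 CPM and 11.4 ± 9.50 CPM in the same order of groups. The likeness takes in the differences between replicate sets as well as those between treatments.

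CLCF1, the second ligand, was moderately expressed and had narrow ranges. At 2 h it was at 10.4, 10.2, 12.9 and 12.4 CPM with SB203580 plus flagellin, 14.4, 14.9, 17.0 and 20.6 CPM with flagellin, and 9.93, 11.7, 15.0 and 16.0 CPM with PBS. All the inhibitor libraries lay under all the flagellin libraries, while flagellin and PBS overlapped. The inhibitor difference was -0.54 on the log2 scale (SE 0.15), a level of 0.686 times that with flagellin, lower in 4 of 4 replicates. It did not pass in edgeR without the block (adjusted p = 0.955) or with it (adjusted p = 0.123). In these fits 0 of the 8 members passed, beside 0.00706% and 0.0353% of all genes. Without the block CLCF1 was the 1 member at an unadjusted p under 0.05, beside 2.27% of all genes. DESeq2 called 0 members and 0.077% of the genes it tested. With a term for the 2 sets of replicates at each time CLCF1 passed, at -0.54 (SE 0.099, adjusted p = 0.0166), beside 0.374% of all genes. Ranges that did not overlap were found for 2.57% of all genes in this comparison, and CLCF1 was the only member among them.

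At 24 h CLCF1 was again lower with SB203580 plus flagellin than with flagellin, and flagellin and PBS again overlapped. It stood at 8.79, 7.85, 9.59 and 9.20 CPM with SB203580 plus flagellin, 10.6, 11.7, 10.4 and 11.5 CPM with flagellin, and 10.5, 9.56, 9.34 and 12.8 CPM with PBS. The inhibitor and flagellin ranges again did not overlap, as was so for 1.43% of all genes. The log2 fold change was -0.32 (SE 0.15, edgeR adjusted p = 1). Against PBS, flagellin gave 0.35 (SE 0.15, adjusted p = 0.857) at 2 h, higher in 4 of 4 replicates, and 0.064 (SE 0.15, adjusted p = 1) at 24 h.

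CLCF1 was also lower at 24 h than at 2 h in flagellin cultures, at 11.0 ± 0.67 CPM and 16.8 ± 2.82 CPM (SD, n = 4 each). This passed without the block at -0.60 (SE 0.15, adjusted p = 0.0175) and with it at -0.59 (adjusted p = 0.00194). The call without the block was lost without replicate 3 at 24 h (adjusted p = 0.0611), replicate 3 at 2 h (0.0523) or replicate 4 at 2 h (0.0728). In SB203580 plus flagellin cultures, where the 24 h and 2 h ranges did not overlap (11.7% of all genes), the difference of -0.37 passed with the block alone (adjusted p = 0.0347), and was lost (adjusted p 0.0501 to 0.117) without any 1 of 7 libraries, replicate 1 at 24 h being the exception. In PBS cultures it was -0.32 (SE 0.15, adjusted p = 0.201).

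IL6, the ligand that gave the family its name, was close to the detection floor. It had 7, 14, 14 and 8 reads with SB203580 plus flagellin at 2 h, 14, 15, 19 and 11 reads with flagellin, and 4, 11, 9 and 2 reads with PBS. A floor of 3 reads corresponded to 0.0827 to 0.114 CPM, depending on the library. Flagellin libraries had more IL6 than the PBS library of the same number in 4 of 4 replicates, but the groups overlapped. The log2 fold change was 1.03 (SE 0.66, edgeR adjusted p = 1). Summed over the 4 libraries, the ratio of flagellin to PBS was 2.03, with an exact 95% interval of 1.26 to 3.35 that covers counting error only.

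At 24 h IL6 had 3, 14, 4 and 4 reads with SB203580 plus flagellin, 0, 8, 5 and 6 reads with flagellin, and 0, 1, 1 and 2 reads with PBS. Each PBS library was under the floor, and the inhibitor libraries were all above the PBS libraries, as was so for 2.78% of all genes. The summed counts were 25 with SB203580 plus flagellin and 4 with PBS, a ratio of 5.94 (exact interval 2.05 to 23.5), and 19 with flagellin, a ratio to PBS of 4.42 (1.47 to 17.9). These intervals leave out the spread between libraries, and neither contrast passed the edgeR test (log2 fold changes 2.49 and 2.15, adjusted p = 1). Of the 25 reads 14 came from replicate 2, and without that library the log2 fold change of 2.49 was 1.69. In PBS cultures IL6 was lower at 24 h than at 2 h, with 4 and 26 reads in all. There it was the 1 member called, at -2.65 (SE 0.84, adjusted p = 0.0483), where 10.2% of all genes were. The ratio of the summed reads was 0.152 (exact interval 0.0385 to 0.437). The call was lost when any of the 8 libraries except replicate 4 at 2 h was left out. With the block the value was -2.59 (adjusted p = 0.0183), lost without replicate 2 or 3 at 24 h or replicate 3 at 2 h (adjusted p at most 0.0814). In flagellin cultures the fall passed with the block alone, at -1.66 (SE 0.54, adjusted p = 0.0381), with an adjusted p of 0.186 without it. That call was lost without replicate 1 or 3 at 24 h or replicate 1, 3 or 4 at 2 h (adjusted p at most 0.106).

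Genes that act on IL6 transcription or mRNA were read as a list. Of 8 regulators tested, 1 rose with flagellin at 2 h without the block and 3 with it, beside 0.325% and 1.07% of all genes, and none fell. The gene that rose in both fits was ZC3H12A, the RNase that cuts IL6 mRNA, at 307 ± 67.0 CPM with flagellin and 63.1 ± 26.9 CPM with PBS (SD, n = 4 each). Its log2 fold change was 2.28 (SE 0.47, edgeR adjusted p = 0.0301). With the block NFKBIZ, a nuclear cofactor for IL6 transcription, rose by 2.51 (SE 0.24, adjusted p = 3.35e-06), and ZFP36, which binds AU-rich RNA and speeds its decay, rose by 0.97 (SE 0.19, adjusted p = 0.0111). The median over the 8 regulators was 0.43 without the block, against -0.0027 over all tested genes.

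ZFP36 was also the 1 regulator that differed with the inhibitor at 2 h, in the block fit. It was at 205 ± 117 CPM with SB203580 plus flagellin and 420 ± 160 CPM with flagellin (SD, n = 4 each), which is -1.12 on the log2 scale (SE 0.19, adjusted p = 0.0379). That comparison called 0.0353% of all genes with the block. Without the block 0 of the 8 regulators passed there, and their median was -0.52, against 0.012 over all genes. With the inhibitor, ZC3H12A and NFKBIZ still stood above PBS at 2 h in the block fit, by 1.82 (SE 0.19, adjusted p = 1.71e-05) and 1.84 (SE 0.24, adjusted p = 0.00027). Over time ZC3H12A was lower at 24 h with flagellin (-1.71, SE 0.46, adjusted p = 0.0245), and with the block NFKBIZ (-1.97, SE 0.24, adjusted p = 2.35e-05) and ZFP36 (-1.13, SE 0.19, adjusted p = 0.000476) were lower there too. With SB203580 plus flagellin ZC3H12A and NFKBIZ were lower at 24 h with the block alone, with log2 fold changes of -1.18 and -1.20 (adjusted p = 0.00039 and 0.002). Over time 7.9% of all genes passed with flagellin without the block and 18.8% with it. With SB203580 plus flagellin 17.1% passed with the block.

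Among the receptor chains no treatment comparison called a gene, whether or not the block was used, which was near the background. At most 0.325% of all genes passed in a treatment comparison without the block, and at most 1.07% with it. IL6ST, the shared chain, lay between 117 and 202 CPM over the 24 libraries. At 2 h it averaged 160 ± 25.2 CPM with SB203580 plus flagellin, 166 ± 31.8 CPM with flagellin and 167 ± 22.3 CPM with PBS (SD, n = 4 each). The log2 fold change of flagellin against PBS was -0.011 (SE 0.13, edgeR adjusted p = 1). At 24 h the means were 141 ± 16.0, 135 ± 5.97 and 144 ± 7.21 CPM in SB203580 plus flagellin, flagellin and PBS cultures. The difference of flagellin against PBS there was -0.095 (SE 0.13, adjusted p = 1). IL6ST was lower at 24 h than at 2 h in 4 of 4 replicates with flagellin and with PBS, with log2 fold changes of -0.30 and -0.21 that did not pass the test (adjusted p = 0.189 and 0.346). With SB203580 plus flagellin it was lower in 3 of 4, replicate 2 standing at 147 CPM at 24 h and 129 CPM at 2 h (-0.18, SE 0.13, adjusted p = 0.482). With the set term the difference in flagellin cultures passed, at -0.28 (adjusted p = 0.0316).

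OSMR, the receptor chain for oncostatin M, differed by time. In flagellin cultures it was at 75.5, 54.7, 76.2 and 72.4 CPM at 24 h, against 82.9, 98.6, 150.5 and 229 CPM at 2 h. In PBS cultures it was at 65.7, 57.6, 61.0 and 65.7 CPM at 24 h, against 83.0, 78.0, 125 and 165 CPM at 2 h. Under both treatments every 24 h library lay under every 2 h library, which in PBS cultures was so for 17.2% of all genes (no overlap in either direction), and the 2 h values were higher in replicates 3 and 4. The fall with flagellin passed without the block (-1.01, SE 0.29, edgeR adjusted p = 0.0361). The fall with PBS passed with the block alone (-0.77, SE 0.21, adjusted p = 0.012), since without it the adjusted p was 0.0664 at -0.85 (SE 0.29). With SB203580 plus flagellin OSMR averaged 62.1 ± 7.65 CPM at 24 h and 111 ± 39.5 CPM at 2 h, and passed with the block alone (-0.79, SE 0.21, adjusted p = 0.0128), a call lost without replicate 3 at 2 h (adjusted p = 0.0541).

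Between 24 h and 2 h in flagellin cultures OSMR gave a log2 fold change of -1.36 (edgeR adjusted p = 0.000753) within replicates 3 and 4, and -0.47 (adjusted p = 0.226) within replicates 1 and 2. The difference between these sets was not tested. The flagellin call without the block was lost without any of the 24 h libraries or without replicate 3 or 4 at 2 h (adjusted p at most 0.162), and with the block it held without each library. Flagellin against PBS at 2 h was 0.32 (SE 0.29, adjusted p = 1) and turned to -0.027 without replicate 4 of the flagellin group, at 229 CPM.

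LIFR, the receptor chain for LIF, was low. At 2 h it averaged 7.64 ± 1.92 CPM with SB203580 plus flagellin, 8.65 ± 1.65 CPM with flagellin and 8.66 ± 2.19 CPM with PBS (SD, n = 4 each). At 24 h it averaged 6.01 ± 2.21, 6.55 ± 2.56 and 8.50 ± 1.39 CPM in SB203580 plus flagellin, flagellin and PBS cultures. The 3 groups overlapped at both times, and the largest difference between treatments without the block was -0.50 (SE 0.31, edgeR adjusted p = 1), between SB203580 plus flagellin and PBS at 24 h.

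LIFR varied alongside markers of epithelial cell types among replicates 1 and 2, but not among replicates 3 and 4. In PBS cultures at 2 h, replicates 1 and 2 had 10.5 and 5.51 CPM of LIFR, and 32.0 and 7.51 CPM summed over 5 ciliated cell markers. In flagellin cultures at 24 h they had 8.84 and 2.95 CPM of LIFR, and 28.2 and 12.4 CPM of ciliated markers. In 5 of the 6 groups the library with more LIFR of these 2 also had the higher ciliated sum, and in 5 of 6 the higher sum of 4 club and secretory markers. The sum of 3 squamous markers, IVL, KRT4 and TGM1, ran the other way in 5 of 6 groups. KRT4 made up most of this sum, with a median of 1990 CPM over the 24 libraries, against 75.5 for IVL and 60.5 for TGM1. In flagellin cultures at 24 h the sum was 1852 and 10002 CPM in replicates 1 and 2, and in PBS cultures at 2 h it was 4794 and 8884 CPM. Over both times the squamous sum ran from 1671 to 10195 CPM with SB203580 plus flagellin, 1714 to 10002 CPM with flagellin and 1611 to 8884 CPM with PBS. The exception for ciliated markers was SB203580 plus flagellin at 24 h, where LIFR was at 3.52 and 5.10 CPM beside ciliated sums of 10.4 and 5.56 CPM. For replicates 3 and 4 LIFR and the sum ran the same way in 3 of 6 groups for the ciliated and for the club and secretory list, and the squamous sum ran the other way in 3 of 6. The 5 ciliated markers found, led by FOXJ1, summed to 5.56 to 16.2 CPM with SB203580 plus flagellin, 4.74 to 36.5 CPM with flagellin and 7.51 to 32.0 CPM with PBS over both times. None of the 5 was at 0 in any library, PIFO had no symbol match, and their part in the LIFR values was not tested. In RNA from whole cultures, fewer cells of a type and less RNA per cell cannot be told apart.

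**Figure D2:**
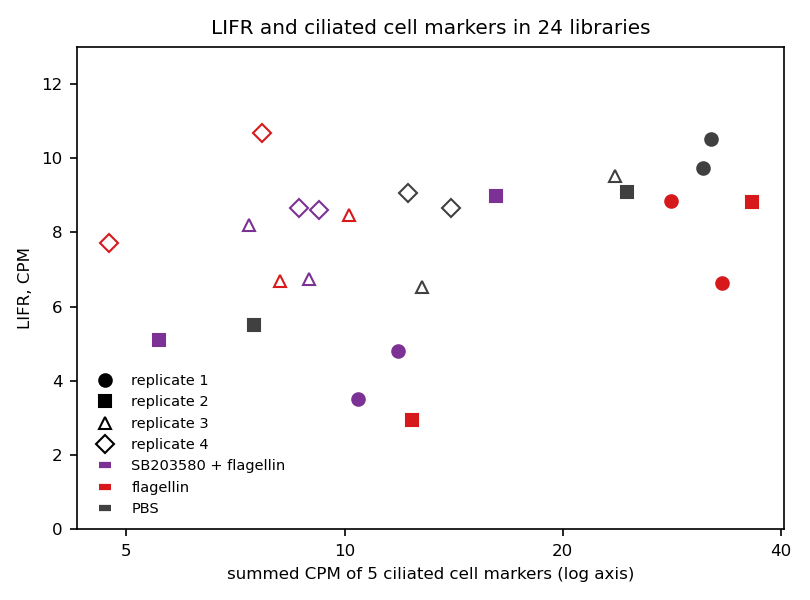
LIFR in CPM against the summed CPM of 5 ciliated cell markers (log axis) in 24 libraries, coloured by treatment with the marker shape giving the replicate number. Among replicates 1 and 2 (filled) LIFR spans 2.95 to 10.5 CPM, and among replicates 3 and 4 (open) 6.53 to 10.7 CPM.

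IL6R, the receptor chain for IL6, lay between 3.61 and 14.0 CPM. At 2 h it averaged 10.3 ± 1.74 CPM with SB203580 plus flagellin, 8.31 ± 1.63 CPM with flagellin and 8.04 ± 1.72 CPM with PBS (SD, n = 4 each). At 24 h it averaged 7.74 ± 4.61, 6.63 ± 3.69 and 5.28 ± 1.50 CPM in SB203580 plus flagellin, flagellin and PBS cultures. The inhibitor libraries were above the PBS library of the same number in 4 of 4 replicates at both times, by 0.36 (SE 0.37) and 0.55 (SE 0.37) on the log2 scale, with an edgeR adjusted p of 1 each. The wide spread at 24 h followed the replicate number: replicates 3 and 4 lay between 3.61 and 4.32 CPM, and replicates 1 and 2 between 6.45 and 14.0 CPM.

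STAT3, the transcription factor that the receptors feed, had the highest mean level of the 8 genes per kilobase of exon in each group. At 2 h it was at 310, 354, 336 and 326 CPM with SB203580 plus flagellin, 352, 317, 344 and 383 CPM with flagellin, and 324, 256, 294 and 293 CPM with PBS. Flagellin exceeded PBS in 4 of 4 replicates, although the ranges overlapped. The log2 fold change was 0.26 (SE 0.16, edgeR adjusted p = 1), and that of the inhibitor against flagellin was -0.075 (SE 0.16, adjusted p = 1). At 24 h STAT3 averaged 317 ± 71.9, 288 ± 53.8 and 288 ± 58.8 CPM in SB203580 plus flagellin, flagellin and PBS cultures, with no call.

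**Figure D3:**
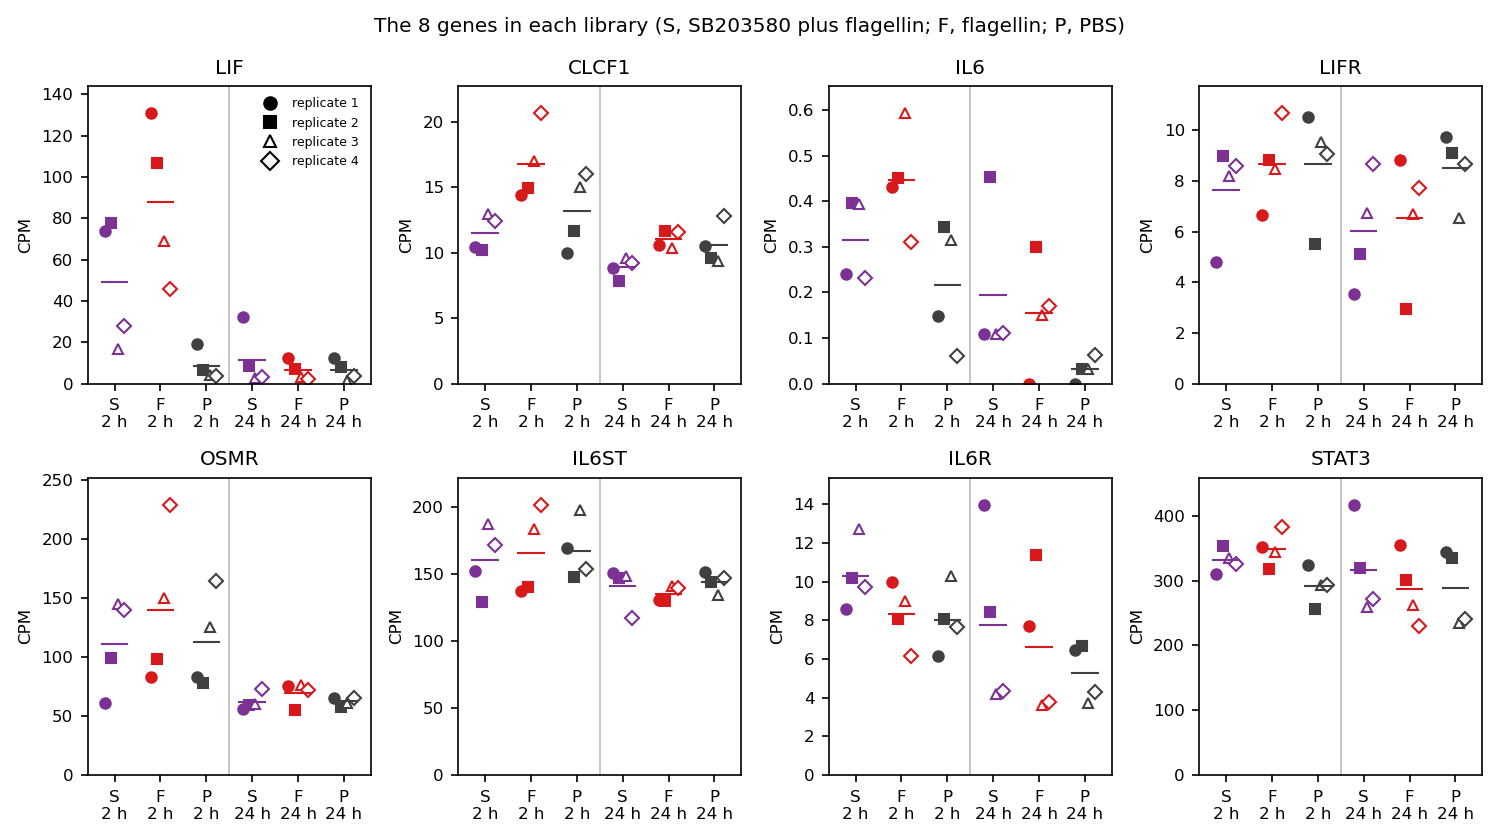
The 8 genes in each library, in CPM on axes that start at 0. S is SB203580 plus flagellin, F flagellin and P PBS, markers give the replicate number (filled for 1 and 2, open for 3 and 4) and lines the mean of 4 libraries. LIF with flagellin at 2 h and OSMR at 2 h against 24 h stand out, and IL6R and STAT3 at 24 h separate by replicate number.

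Other genes of the signalling chain were read as lists. Of 6 Janus kinases and further STATs tested, 1 passed with flagellin at 2 h with or without the block, beside 1.07% and 0.325% of all genes. STAT5A, which growth hormone, prolactin and cytokine receptors activate, was at 34.1 ± 4.71 CPM with flagellin and 17.6 ± 1.88 CPM with PBS (SD, n = 4 each), which is 0.95 higher on the log2 scale (SE 0.17, edgeR adjusted p = 0.00986). It stood at 35.2 ± 4.66 CPM with SB203580 plus flagellin, 1.00 (SE 0.17, adjusted p = 0.0115) above PBS. By 24 h PBS cultures had reached 32.1 ± 6.33 CPM, which was 0.86 (SE 0.17, adjusted p = 0.00288) above PBS at 2 h. STAT5B, its close relative, was 0.49 above PBS with SB203580 plus flagellin at 2 h, which passed with the block (adjusted p = 0.0487) and not without it (0.19). With flagellin it was 0.42 above PBS at 2 h and passed with the set term alone (adjusted p = 0.0405). In PBS cultures STAT5B was higher at 24 h than at 2 h, by 0.79 (SE 0.13, adjusted p = 0.000591), and with the block the Janus kinase TYK2 was higher there by 0.30 (adjusted p = 0.0106). Between these times in PBS cultures 10.2% of all genes passed without the block and 22.5% with it. The list median was 0.17 for flagellin against PBS at 2 h, against -0.0027 over all genes.

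Of 8 inhibitors of the pathway, 0 passed with flagellin or with SB203580 at 2 h or 24 h, with or without the block. These comparisons called at most 1.07% of all genes. SOCS3 averaged 2.22 ± 1.44 CPM with SB203580 plus flagellin, 5.08 ± 1.69 CPM with flagellin and 3.65 ± 1.50 CPM with PBS at 2 h (SD, n = 4 each). Over time, PTPN2, a phosphatase that acts on Janus kinases, was lower at 24 h with flagellin (-0.43, SE 0.11, edgeR adjusted p = 0.0199). SOCS3 was lower there with the block alone (-1.03, SE 0.33, adjusted p = 0.0366). CISH, another SOCS-family inhibitor, was higher at 24 h with SB203580 plus flagellin (1.33, SE 0.31, adjusted p = 0.0134). In PBS cultures the phosphatase PTPN11 was lower at 24 h (-0.30, SE 0.085, adjusted p = 0.0274), and with the block PTPN2 was lower (-0.33, adjusted p = 0.0363) and CISH higher (0.88, adjusted p = 0.0124). The shares of all genes called over time were 7.9% with flagellin, 10.2% with PBS and 6.88% with SB203580 plus flagellin. With the block they were 18.8%, 22.5% and 17.1%.

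Of 14 tested genes known as STAT3 targets, 0 passed with flagellin at 2 h without the block, and 2 rose with it, beside 0.325% and 1.07% of all genes. With the set term 7 of 14 passed, 6 higher and 1 lower, beside 2.24% of all genes. The 2 that rose with the block were BCL3, a nuclear partner of NF-kappaB, at 1.67 (SE 0.30, adjusted p = 0.00562), and CEBPD, a transcription factor of the acute phase, at 0.82 (SE 0.13, adjusted p = 0.00179). BCL3 averaged 27.9 ± 5.97 CPM with SB203580 plus flagellin, 49.6 ± 6.38 CPM with flagellin and 17.3 ± 7.63 CPM with PBS (SD, n = 4 each). The list median was 0.36 for flagellin against PBS and -0.41 for SB203580 plus flagellin against flagellin at 2 h. In that second comparison 0 of 14 passed with or without the block, beside 0.0353% and 0.00706% of all genes. JUNB, a transcription factor of the AP-1 family, was lower there with the set term (-0.91, adjusted p = 0.0328), beside 0.374% of all genes. BCL6, a repressor of transcription, was lower with SB203580 plus flagellin than with PBS at 2 h with the block alone (-0.44, SE 0.096, adjusted p = 0.0373). The same medians over all genes were -0.0027 and 0.012.

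Over time, 4 of 14 targets were lower at 24 h than at 2 h in flagellin cultures without the block, where 3.68% of all genes were lower. They were BCL3 (-1.61, SE 0.45), CEBPD (-1.12, SE 0.27), MCL1 (-0.43, SE 0.12) and IL4R (-0.94, SE 0.16), and BCL6 was higher (0.51, SE 0.12), with adjusted p between 0.00111 and 0.0329. With the block LBP and SBNO2 were lower as well. The list median of -0.37 compares with 0.013 over all genes. In PBS cultures IL4R, the interleukin 4 receptor chain, was the 1 of 14 that passed without the block (-0.59, SE 0.16, adjusted p = 0.0214), beside 10.2% of all genes, and CEBPD was lower as well with it (-0.38, adjusted p = 0.0433). With SB203580 plus flagellin BCL6 was higher at 24 h (0.49, SE 0.12, adjusted p = 0.0153), and with the block BCL3 (-1.21), CEBPD (-0.83) and IL4R (-0.42) were lower, with adjusted p between 0.000335 and 0.0206. The shares of all genes called over time with the block were 18.8% with flagellin, 22.5% with PBS and 17.1% with SB203580 plus flagellin.

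Of 3 further ligands tested, CTF1 (cardiotrophin 1), IL11 and EBI3, 0 passed in any treatment comparison with or without the block, and IL11 and EBI3 averaged at most 0.407 CPM in every group. CTF1 was higher at 24 h than at 2 h with SB203580 plus flagellin in the block fit (0.53, adjusted p = 0.0464; 0.077 without it). Of 4 further receptor chains, 0 passed in any treatment comparison with or without the block. For ligands and receptors alike, these comparisons called at most 1.07% of all genes. IL11RA, the receptor for IL11, was higher at 24 h with flagellin in the block fit (0.58, adjusted p = 0.0207; 0.337 without it). CNTFR, the chain that CLCF1 binds, had group means between 0.240 and 0.401 CPM. ADAM10 and ADAM17, proteases that shed receptors such as IL6R, did not pass in a treatment comparison with or without the block. With the set term ADAM10 was lower with flagellin than with PBS at 2 h (-0.27, adjusted p = 0.0394), beside 2.24% of all genes. Over time ADAM10 was lower at 24 h in PBS cultures (-0.48, SE 0.11, adjusted p = 0.00683). ADAM17 was higher at 24 h with the block alone, by 0.28 with flagellin and 0.31 with PBS (adjusted p = 0.0391 and 0.0209). Over time the block fit called 18.8% of all genes with flagellin, 22.5% with PBS and 17.1% with SB203580 plus flagellin. Without the block 10.2% were called in PBS cultures. OSM, CNTF and IL31 had no symbol match, and IL27 and IL31RA were under the read minimum.

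Over time, the members called by edgeR over all libraries were all lower at 24 h. From 2 h to 24 h in flagellin cultures, 3 of 8 members passed without the block, LIF, CLCF1 and OSMR, all lower at 24 h, where 7.9% of all genes passed (3.68% lower). With the block 4 of 8 passed, IL6 being the fourth, where 18.8% of all genes did (9.26% lower). The 4 genes were also those whose 24 h and 2 h ranges did not overlap, as was so for 14.7% of all genes. In PBS cultures 1 of 8 passed without the block and 2 with it, IL6 and OSMR. Counting both directions, 10.2% and 22.5% of all genes did, so the PBS counts were near the background. In SB203580 plus flagellin cultures 0 of 8 passed without the block, beside 6.88% of all genes in either direction. There 3 members and 20.3% of all genes had an unadjusted p under 0.05. DESeq2 called 1 member and 7.58% of the genes it tested. With the block 3 members passed, LIF, CLCF1 and OSMR, beside 17.1% of all genes in either direction. With the set term 5 of 8 passed with flagellin, 4 with SB203580 plus flagellin and 4 with PBS, all lower at 24 h. The shares of all genes passing there, higher or lower, were 28.9%, 27.1% and 33.2%. The median over the 8 members was -0.50 with flagellin, -0.34 with PBS and -0.40 with SB203580 plus flagellin, against medians over all genes of 0.013, -0.0090 and 0.011.

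**Figure D4:**
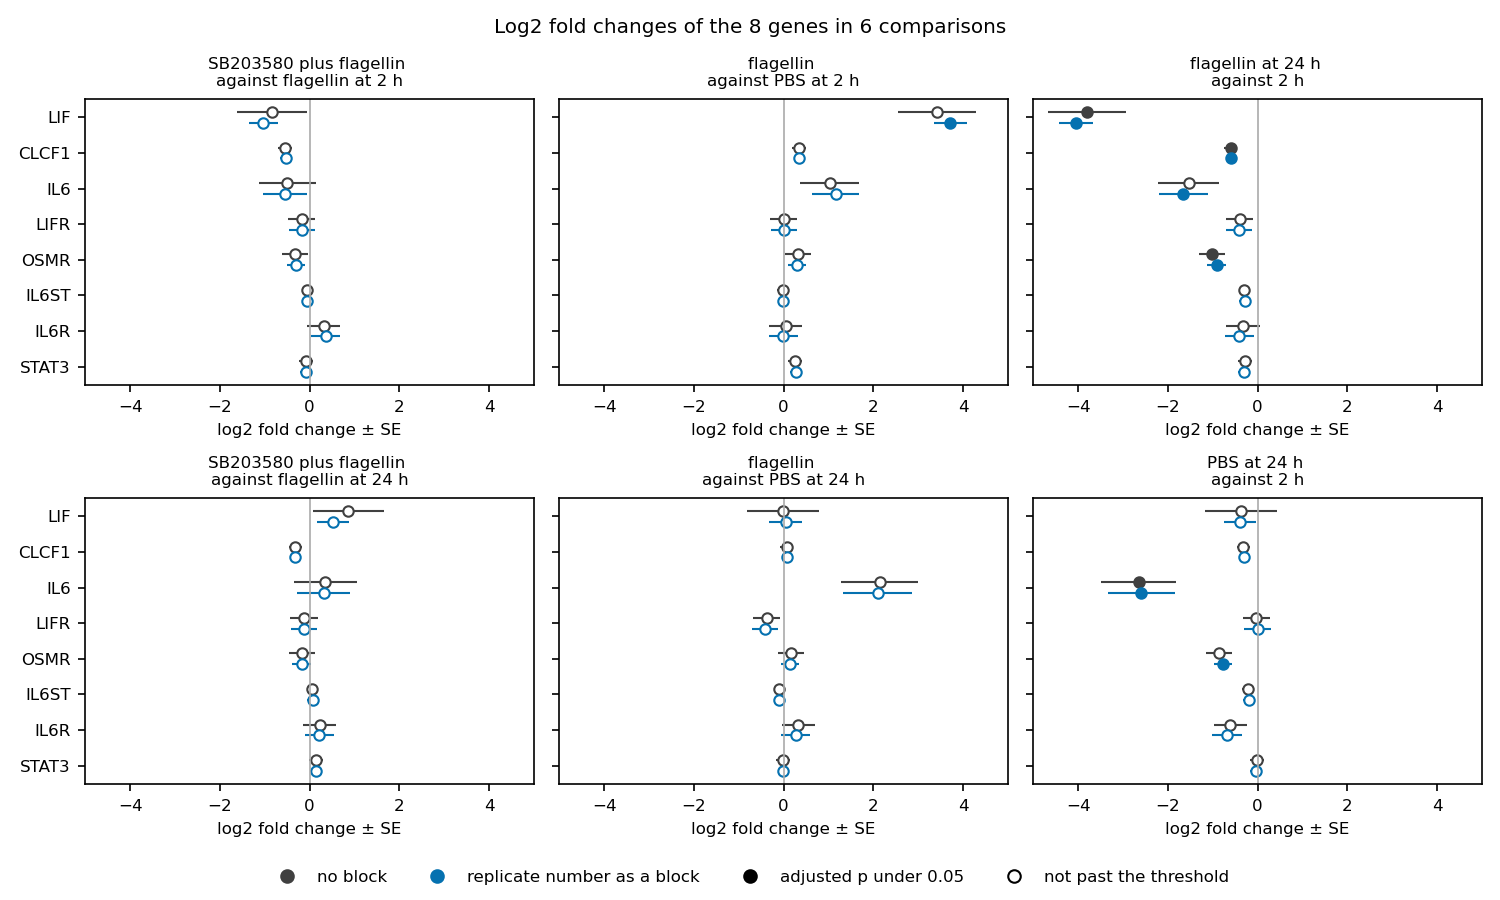
Log2 fold changes with standard errors for the 8 genes in 6 comparisons, without (grey) and with (blue) the replicate number as a block. Filled points passed an adjusted p under 0.05 and open points did not. LIF at 2 h lies at 3.42 without the block and 3.71 with it, with an SE of 0.86 without it and 0.37 with it.

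Compared per kilobase of exon, STAT3, IL6ST and OSMR stood above the ligands and the other receptor chains in PBS cultures. In PBS cultures at 2 h the mean levels were 35.5 CPM per kb for STAT3, 23.5 for IL6ST, 20.4 for OSMR, 5.51 for CLCF1, 2.03 for LIF, 1.43 for IL6R, 0.855 for LIFR and 0.107 for IL6. Neighbours whose ranges overlapped were IL6ST and OSMR, CLCF1 and LIF, and LIF and IL6R. With flagellin at 2 h LIF reached 21.6 CPM per kb, and its range of 11.2 to 32.1 overlapped those of IL6ST (mean 23.3) and OSMR (mean 25.4). With SB203580 plus flagellin at 2 h LIF was at 12.0 CPM per kb, with a range of 4.08 to 19.1 that overlapped those of OSMR and CLCF1. At 24 h the mean of LIF ranked below that of CLCF1 in each group, with overlapping ranges in SB203580 plus flagellin cultures, and was 2.83, 1.55 and 1.57 CPM per kb with SB203580 plus flagellin, flagellin and PBS.

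**Figure D5:**
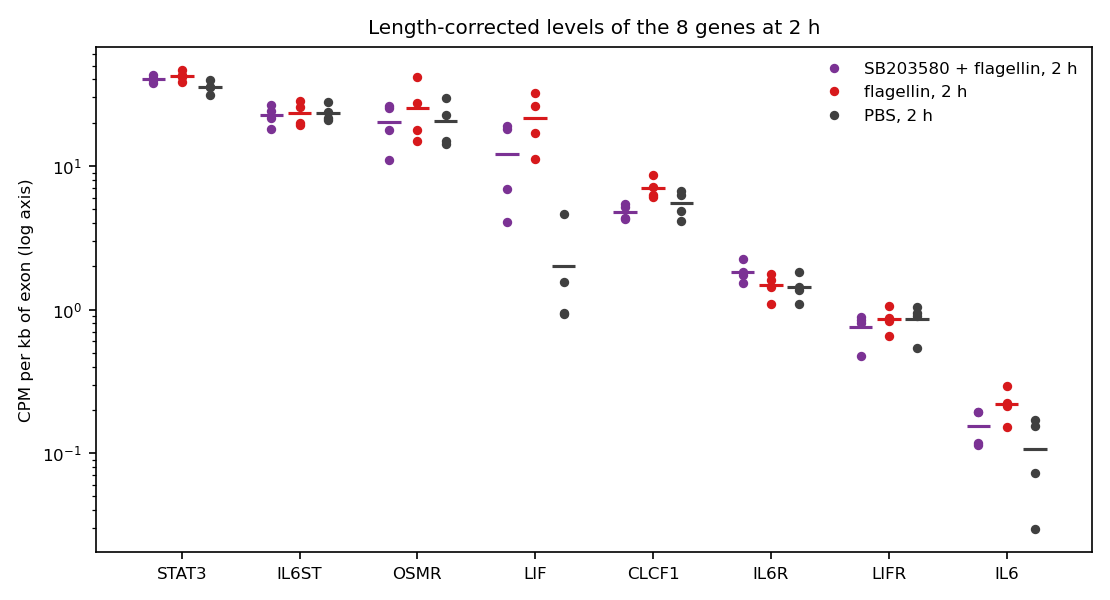
Levels of the 8 genes at 2 h in CPM per kilobase of exon, on a log axis, with 1 point per library and a line at the mean of 4. With flagellin LIF spans 11.2 to 32.1 CPM per kb, among IL6ST and OSMR, and with PBS it lies near IL6R, while IL6 is the lowest gene in each group.

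The replicate sets differed in several members apart from any treatment. At 24 h LIF was at 2.70 ± 0.78 CPM in replicates 3 and 4 and 13.5 ± 9.50 CPM in replicates 1 and 2 (SD, n = 6 each, 3 groups pooled), with no overlap. That difference was -2.25 on the log2 scale (SE 0.36, edgeR adjusted p = 2.79e-05). Because the sets were taken from earlier results of these data, the p-values between them describe a split already seen. IL6R and STAT3 were likewise lower in replicates 3 and 4 at 24 h, with log2 differences of -1.16 (SE 0.17, adjusted p = 6.62e-06) and -0.47 (SE 0.072, adjusted p = 1.26e-05), again without overlap. At 2 h OSMR was higher in replicates 3 and 4, at 159 ± 36.7 CPM against 83.8 ± 14.1 CPM in replicates 1 and 2 (0.92, SE 0.12, adjusted p = 3.87e-06). CLCF1 and IL6ST were higher there too, by 0.39 (adjusted p = 0.000476) and 0.32 (adjusted p = 0.00157). LIF was lower there, with a log2 difference of -1.49 (adjusted p = 0.000961). In all, 4 of 8 members passed at 2 h and 3 of 8 at 24 h, beside 52% and 64.6% of all genes, so neither share stood above the background. Ranges that did not overlap were found for 1 of 8 members at 2 h and 3 of 8 at 24 h, beside 26.8% and 36.2% of all genes.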

How the data were processed

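RNA-seq was done on 24 libraries of pig bronchial epithelial cells in 6 groups of 4. The deposited table holds raw read counts per gene, made by the authors with STAR 2.4.0a and featureCounts from Subread 1.4.6-p1, per the submitters' processing notes. Those notes name GRCm38, a mouse build, whereas the deposited identifiers are pig Ensembl genes, and the pig build is not given in the sources used here. Of 31868 features, 5988 were not pig genes, and these held 10217 counts in all and were left out. Library totals ran from 26345945 to 36267289 counts.

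Counts of 14172 of the 25880 pig genes passed edgeR's filterByExpr and were tested together, with TMM scaling and the robust quasi-likelihood F test (edgeR 4.0.16, R 4.3.3), 1 coefficient per group and 18 residual degrees of freedom. Adjusted p is Benjamini-Hochberg over all tested genes, with a threshold of 0.05. Standard errors were derived from each fold change and its F statistic. There were 11 comparisons. Levels are CPM with TMM-scaled library sizes. The code of the fit without a block was tested on simulated data, for flagellin against PBS at 2 h. The simulated libraries held no differences between replicates or sets, and the block and set fits were not tested in this way.

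Same-numbered libraries deviated together in the data (36 of 36 pairs with a correlation over 0.1, from 0.211 to 0.797), although the labels do not say what a number marks, so a fit with the number as a block is given as well. The same number gave the best match in 21 of the 36, and otherwise the other number of the same set did. In SB203580 plus flagellin against PBS at 2 h, replicate 2 correlated at 0.211 with its own number and at 0.762 with number 1. Alternatives were DESeq2 1.42.0, RLE scaling, no filter, each comparison alone, a term for the 2 replicate sets, each set alone, and each library left out. Leaving out libraries in the block fit was added after seeing the data.

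The 8 members are described one by one, list genes are named where they passed a test or define the list, and genes most like a member are those with the smallest root mean square difference of centred log2 CPM. The members and lists were chosen with earlier results of these data known. Of 55 list genes, 48 matched a symbol and 45 were tested. Intervals and floors of 3 counts cover counting error only. The values of 1 listed gene are not reported here.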

Additional observations from a re-analysis of the deposited data

Results flagged for a closer look

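In 3 of the 48 combinations of gene and group, 1 library lay far from the other 3. Chance alone gives about 1 in 20 such groups. LIF was at 19.0 CPM in replicate 1 of the PBS cultures at 2 h, where the other 3 lay between 3.80 and 6.35 CPM. IL6 was at 0.452 CPM in replicate 2 of the SB203580 plus flagellin cultures at 24 h, where the others lay between 0.108 and 0.112 CPM, and the counts behind these values were 14 reads and 3 to 4 reads. IL6ST was at 117 CPM in replicate 4 of the SB203580 plus flagellin cultures at 24 h, where the others lay between 147 and 151 CPM.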

How the results depend on the processing

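Fold changes below are on the log2 scale. Values of LIFR, OSMR, IL6ST, IL6R and STAT3 for SB203580 plus flagellin against PBS, and of members other than LIF for the differences between effects at 24 h and 2 h, enter here only through the number of members called. The call for LIF with flagellin against PBS at 2 h was made with the replicate block (3.71), with the term for the 2 sets of replicates (3.57), by DESeq2 without a block (3.41) and within replicates 3 and 4 (3.91). It was not made by edgeR over all libraries without either term, nor within replicates 1 and 2. In the same 3 edgeR fits (replicate block, set term, within replicates 3 and 4) LIF passed for SB203580 plus flagellin against PBS at 2 h (2.68, 2.56 and 2.55), for SB203580 plus flagellin at 24 h against 2 h (-2.50, -2.40 and -3.03) and for the flagellin effect at 24 h minus 2 h (-3.67, -3.51 and -3.71). The cause was not tested.

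The number of members called for PBS at 24 h against 2 h was 2 by DESeq2 and with the replicate block, 4 with the set term and within replicates 3 and 4, and 0 with the groups compared alone, without the count filter and within replicates 1 and 2. For flagellin at 24 h against 2 h it was 1 with the groups compared alone and within replicates 1 and 2, 5 with the set term and 6 within replicates 3 and 4. For SB203580 plus flagellin at 24 h against 2 h it was 1 by DESeq2, 3 with the block, 4 with the set term and 5 within replicates 3 and 4. It was 1 for flagellin against PBS at 2 h by DESeq2 and in those 3 edgeR fits, 1 for SB203580 plus flagellin against PBS at 2 h and for the flagellin effect in the same 3 edgeR fits, and 1 for SB203580 plus flagellin against flagellin at 2 h with the set term. The share of all tested genes called at 24 h against 2 h varied too, from the groups compared alone to the set term. It ran from 3.93% to 33.2% for PBS, 2.22% to 28.9% for flagellin and 0.871% to 27.1% for SB203580 plus flagellin.

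Directions turned for values that did not pass, and not all of these were near 0. For flagellin against PBS at 24 h, STAT3 was 0.0018 by DESeq2, 0.0013 with RLE scaling, 0.0036 with the set term and 0.052 within replicates 3 and 4, LIF was 0.042 with the block, 0.062 with the set term and 0.20 within replicates 3 and 4, and CLCF1 was -0.016 and IL6R -0.11 within replicates 3 and 4. For flagellin against PBS at 2 h, LIFR was 0.0058 without the count filter, 0.0030 with the block and 0.056 within replicates 3 and 4, IL6R was -0.0036 with the block and -0.23 within replicates 3 and 4, and IL6ST was 0.15 within replicates 3 and 4. For SB203580 plus flagellin against flagellin at 24 h, within replicates 3 and 4, IL6 was -0.55, IL6ST -0.091, LIF -0.051 and LIFR 0.082, and at 2 h IL6ST was 0.0072 within replicates 1 and 2. Within replicates 1 and 2, at 24 h against 2 h, IL6R was 0.26, IL6ST 0.093 and STAT3 0.16 with SB203580 plus flagellin, IL6R 0.078 with flagellin, and LIFR 0.25 and STAT3 0.24 with PBS.

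With each library left out in turn, directions turned in these ranges. For flagellin against PBS at 24 h, LIF ran from -0.58 to 0.53, STAT3 from -0.12 to 0.091 and IL6R from -0.064 to 0.53. For flagellin against PBS at 2 h, IL6R ran from -0.063 to 0.19, LIFR from -0.17 to 0.11, OSMR from -0.027 to 0.56 and IL6ST from -0.12 to 0.080. For SB203580 plus flagellin against flagellin at 24 h, LIF ran from -0.45 to 1.42, STAT3 from -0.020 to 0.26, IL6 from -0.46 to 0.83, IL6R from -0.23 to 0.60 and LIFR from -0.38 to 0.062. At 2 h OSMR ran from -0.52 to 0.0099 and IL6ST from -0.14 to 0.058. For SB203580 plus flagellin against PBS at 24 h LIF ran from -0.47 to 1.4. For PBS at 24 h against 2 h, LIF ran from -0.92 to 0.45, STAT3 from -0.11 to 0.071 and LIFR from -0.19 to 0.082. For SB203580 plus flagellin at 24 h against 2 h, STAT3 ran from -0.23 to 0.014, and LIF from -3.41 to -1.76, passing without replicate 1 of the inhibitor group at 24 h (adjusted p = 0.0216). The number of members called ran from 1 to 3 for flagellin, 0 to 1 for PBS and 0 to 1 for SB203580 plus flagellin, each at 24 h against 2 h.

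Depth limits IL6, whose libraries held at most 19 reads. Without a culture given SB203580 alone, an effect of the inhibitor by itself was not analysed here. For the 8 members the replicate block changed no call other than those given beside the results.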
